A study of Homo sapiens with 8 samples.

Results

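The 43 genes described here are interferon-stimulated genes, a list of antiviral effectors, RNA sensors and signalling factors. The list was chosen by gene name, with earlier results of these data known, and read from the deposited table of 23368 genes. All 43 symbols were present in the table. They were measured in H2030-BrM, a human lung adenocarcinoma line (H2030) selected for its growth as brain metastases, which expressed EGFP-tagged RPL10A, a protein of the ribosome. An antibody against EGFP pulled down the tagged ribosomes with the RNA bound to them, a procedure called TRAP, and that RNA was sequenced. The study asked what changes in ribosome-bound mRNA when the cells are placed on brain tissue, with and without the adhesion molecule L1CAM. Its 4 groups had 2 libraries each: shL1CAM_slice (shRNA against L1CAM, 48 h on a mouse organotypic brain slice), shL1CAM_dish (shRNA against L1CAM, regular culture in a dish), shControl_slice (shRNA against luciferase, 48 h on the slice) and shControl_dish (shRNA against luciferase, dish). All 8 libraries carried the EGFP-Rpl10a construct and an shRNA, so no group was of unmodified cells, and slice and dish differed at once in tissue contact, medium, serum level and time. The labels name 1 shRNA target per group and do not say how many hairpins or clones were used. Although the labels call the 2 libraries of a group biological replicates, no source says whether separate cultures were used; p-values here thus reflect library-to-library spread, which may be technical.

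Interferons are secreted proteins that bind cell surface receptors and activate kinases of the JAK family, among them JAK1, JAK2 and TYK2. In the type I pathway STAT2 and IRF9 are parts of a complex that binds a promoter element called ISRE, while interferon gamma acts mainly at an element called GAS and through IRF1. Many of the genes switched on in this way act against viruses, and a number of them are also known to be active at a steady level in cancer cells without added interferon. In bulk material, fewer cells expressing a gene and less RNA per cell cannot be told apart.

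Library depth, counted in reads recovered from the table, was 13486212 to 16734651, and 3 reads, the most that a gene with no read could plausibly have had, equalled 2.75 to 3.57 normalized counts, a limit for counting error only. L1CAM checked the labels. It had 74.7 and 65.4 normalized counts in shL1CAM_slice, 126 and 88.3 in shL1CAM_dish, 451 and 438 in shControl_slice, and 482 and 440.4 in shControl_dish. It was lower in shL1CAM cells by limma in slice culture (log2 fold change -2.65 ± 0.21; adjusted p = 0.00164) and in dish culture (-2.11 ± 0.21; adjusted p = 0.00865), a call that was lost without any 1 of the 4 dish libraries (0.104 to 0.191). Epithelial keratins KRT8 and KRT18 were high in every library (3460.0 to 6002 normalized counts), whereas KRT19 and the lung cell markers SFTPC and NKX2-1 were at or near 0 (0 to 16.5). They came from a list of 10 epithelial markers, of which EPCAM, CDH1, KRT7, MUC1 and NAPSA are not given here. Of the 10, 5 had enough counts to be tested. In each slice comparison 1 of them was higher and 0 lower (limma adjusted p = 0.00317 in shL1CAM cells and 0.00247 in shControl cells). The shL1CAM_slice libraries differed from each other more than other replicates did: the SD over genes of the log2 difference was 0.637 there and 0.218 to 0.303 in the other 3 groups. Replicate 2 of shL1CAM_slice carried a transcript-length trend: relative to each gene's mean over the 8 libraries, the median log2 deviation was 0.52 in the 10% of genes that were shortest and -0.68 in the 10% that were longest. Fold changes below include this library unless stated otherwise. Some counts and calls are also given without it, or with the length trend removed.

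The members ranged from undetected to highly abundant. IFITM3 and IFITM2, small membrane proteins that block viral entry, had the largest means, and 23 of the 43 members had a mean of at least 100 normalized counts over the 8 libraries. IFITM3 had 5371 and 9374 normalized counts in shL1CAM_slice, 7849.8 and 6313 in shL1CAM_dish, 7697 and 7859 in shControl_slice, and 7886 and 8927 in shControl_dish. IFITM2 had 4512 and 7106 in shL1CAM_slice, 4861 and 4264 in shL1CAM_dish, 6020.3 and 6564 in shControl_slice, and 4669 and 5687 in shControl_dish. The highest library of both genes was replicate 2 of shL1CAM_slice, and in shL1CAM cells the slice and dish libraries overlapped for both. Together these 2 genes held between 50.2% and 61.9% of all the signal on the 43 members, which itself was 0.134% to 0.172% of a library. Part of the IFITM signal is uncertain between family members, since 43.3% of the 31-base words of IFITM3, 24.6% of those of IFITM2 and 45.9% of those of IFITM1 also occur in another gene.

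Per 1000 bases of transcript, the level of IFITM3 averaged 9480 normalized counts and that of IFITM2 6122, followed by ISG20 at 808, IFI6 at 382, ISG15 at 379 and IRF9 at 189. Between neighbours in that order, the ranges over the 8 libraries separated only IFITM2 from ISG20; every other pair of neighbours among the 34 members overlapped. The least abundant of the 34, the antiviral GTPase gene MX1, averaged 5.44 per 1000 bases. Genes were tested from a mean of 10 normalized counts upward, which left 13010; on the level per 1000 bases the median tested member stood at the 32.6th percentile of the 12482 of them with a known transcript length.

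Of the 43 members, 9 were under that minimum: MX2, OAS1, OAS2, OASL, XAF1, SAMD9L, BST2, RSAD2 and TRIM22. Their means lay between 0.115 and 6.96 normalized counts, and single libraries between 0 and 17.1. OAS2, XAF1, MX2 and TRIM22 had at most 3 reads in any library, so they were not detectable above the limit of 3 reads. Among these 9 are classical targets of type I interferon, including RSAD2 (viperin), BST2 (tetherin) and OAS1, an activator of the RNase L pathway. Their neighbours on the chromosome were not equally low: OAS3, next to OAS1 and OAS2 on chromosome 12, averaged 908 normalized counts, and SAMD9, next to SAMD9L on chromosome 7, averaged 382. The 34 tested members are those that passed a filter on the mean, so counts over them do not describe the 9 others.

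**Figure D1:**
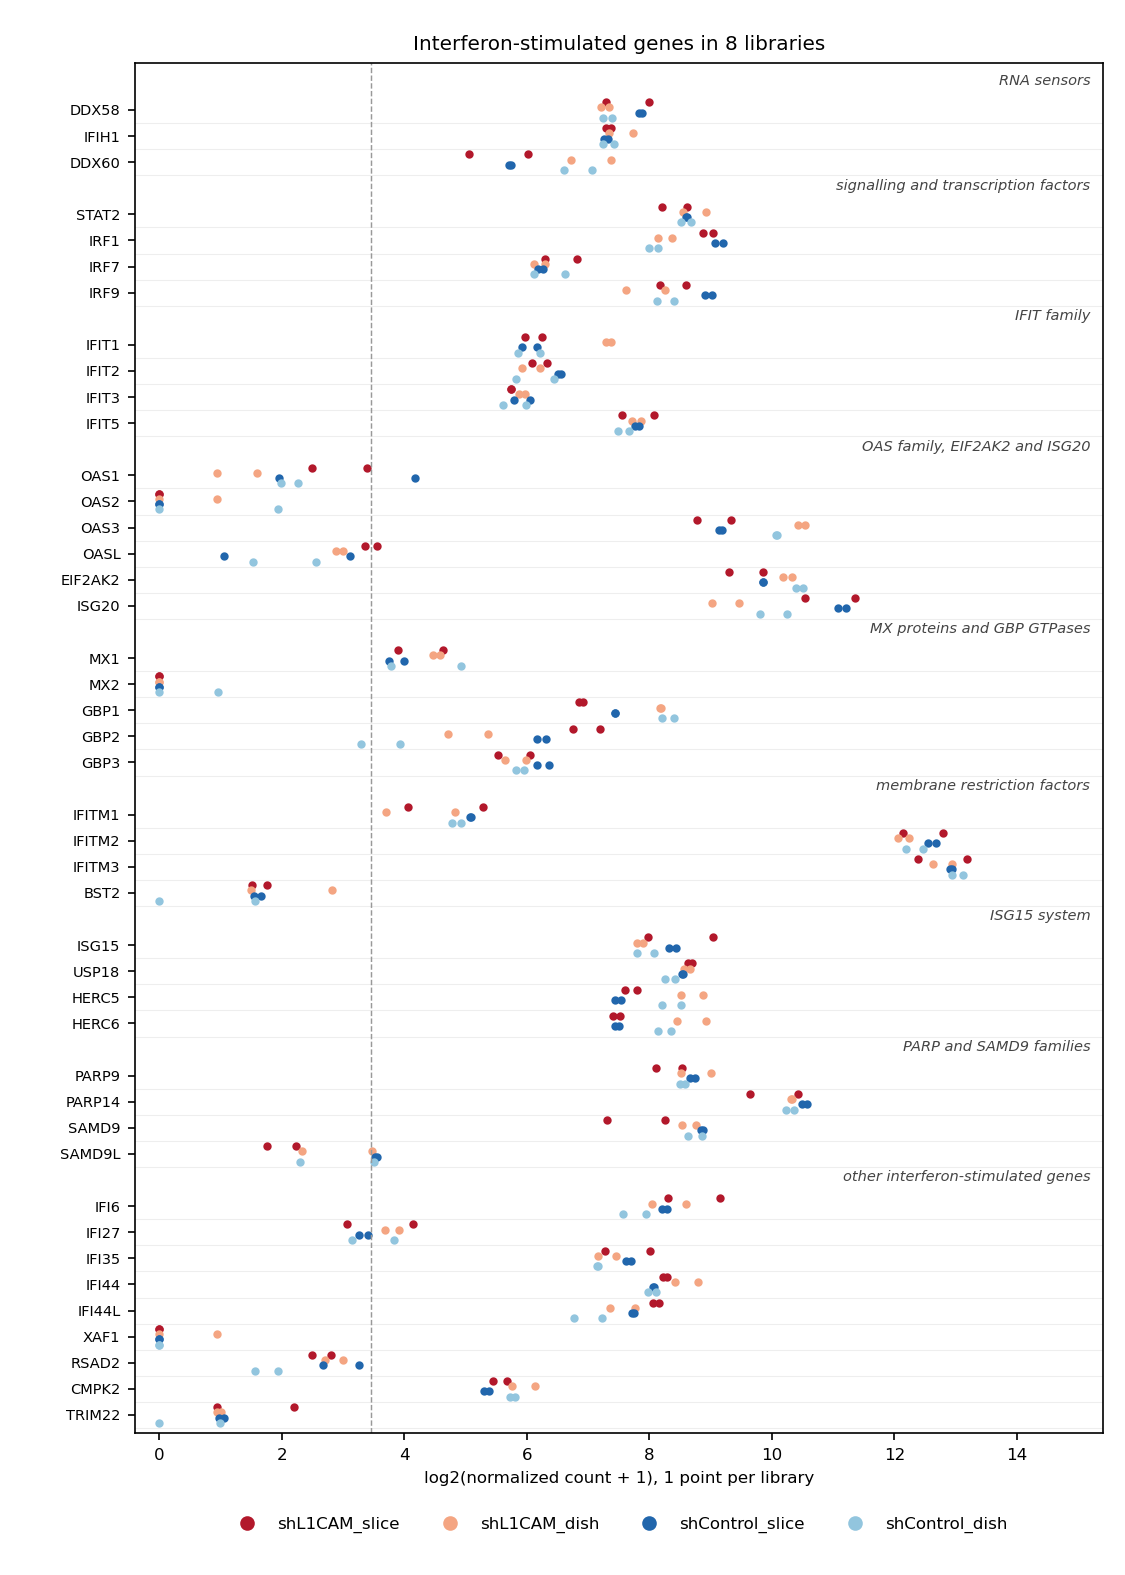
Level of each of the 43 members in each library, as log2 of the normalized count plus 1 (horizontal axis, 1 point per library, colours for the 4 groups), ordered by role; the dashed line marks a mean of 10 normalized counts, the minimum for testing. IFITM2 and IFITM3 lie above 12 on this scale in every library, and 9 members have means left of the line.

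Moving the cells from the dish to the brain slice did not shift the interferon-stimulated genes in a single direction. GBP2, ISG20 and IRF1 were higher on the slice with either shRNA, while GBP1, OAS3, HERC5 and HERC6 were lower with either, and IFIT1, DDX60 and EIF2AK2 were also lower in shL1CAM cells. In shL1CAM cells 10 of the 34 tested members passed an adjusted p of 0.05 (29.4%), against 21.3% of all 13010 genes tested; 3 were higher (8.82%, against 10.1% of all genes) and 7 lower (20.6%, against 11.2%). In shControl cells 7 of 34 passed (20.6%, against 14.8% of all genes), 3 higher (8.82%, against 6.8%) and 4 lower (11.8%, against 8.03%). The median log2 fold change of the 34 was -0.10 in shL1CAM cells and 0.14 in shControl cells, beside 0.00 and 0.01 over all genes tested. The share of members past the threshold was therefore above that of all genes by less than 10 percentage points in each comparison. The 7 members called in shControl cells were all among the 10 called in shL1CAM cells, with the same sign. Both comparisons take each gene's spread from the same fit, so their calls are not independent. No such overlap over all genes is given here. Over the 34 members, 24 (70.6%) had the same sign in both comparisons, which share no library, beside 81.0% of all genes tested. These calls came from 1 limma fit over all genes on log2 of the normalized count plus 1, with Benjamini-Hochberg adjustment, and every log2 fold change and fold is on that scale.

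**Figure D2:**
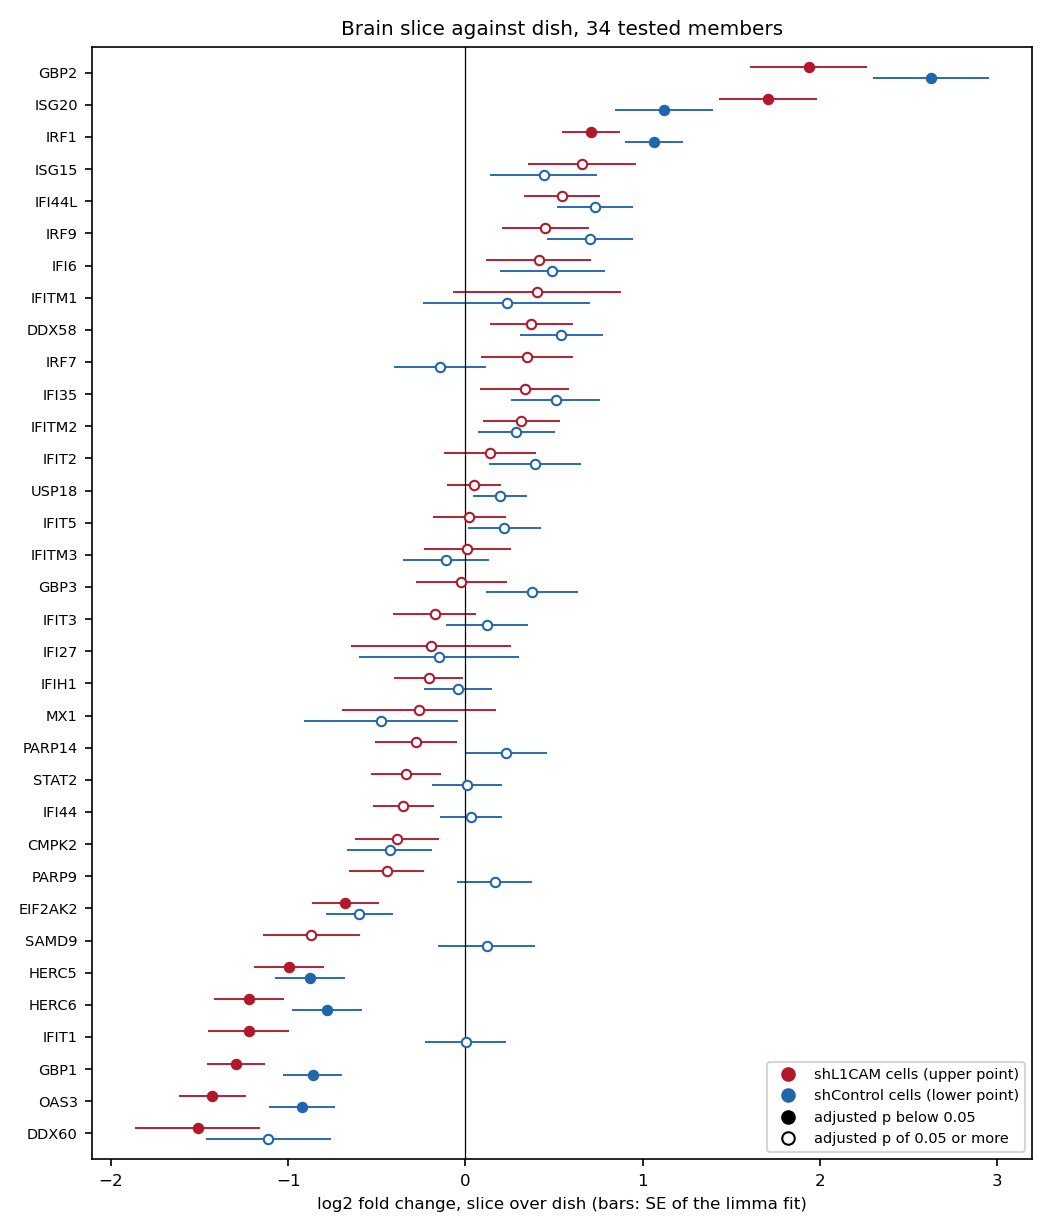
Log2 fold change of slice over dish for the 34 tested members, with the SE of the limma fit as bars; red, upper point: shL1CAM cells; blue, lower point: shControl cells; filled points have an adjusted p below 0.05. GBP2, ISG20 and IRF1 lie to the right with both shRNAs and GBP1, OAS3, HERC5 and HERC6 to the left, while IFIT1 is at -1.22 in shL1CAM cells and 0.00 in shControl cells.

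Because members of one pathway moved in opposite directions, the starts of 6 of the called genes are shown, those with the smallest p in shL1CAM cells that the RefSeq table (GRCh38.p14) holds. Each sequence runs 5′ to 3′ along the gene's own strand from 250 bases before to 50 bases after the start of the gene. Capitals mark each match to GAAANNGAAA, the core of an ISRE, or to its reverse complement TTTCNNTTTC; matches may overlap.
GBP1, chr1:89065159-89065458, minus strand: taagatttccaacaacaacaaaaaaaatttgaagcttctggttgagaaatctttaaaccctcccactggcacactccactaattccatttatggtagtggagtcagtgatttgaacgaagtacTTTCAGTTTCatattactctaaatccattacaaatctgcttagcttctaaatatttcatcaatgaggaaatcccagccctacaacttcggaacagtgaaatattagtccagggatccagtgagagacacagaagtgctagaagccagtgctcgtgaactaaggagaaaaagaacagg
OAS3, chr12:112938224-112938523, plus strand: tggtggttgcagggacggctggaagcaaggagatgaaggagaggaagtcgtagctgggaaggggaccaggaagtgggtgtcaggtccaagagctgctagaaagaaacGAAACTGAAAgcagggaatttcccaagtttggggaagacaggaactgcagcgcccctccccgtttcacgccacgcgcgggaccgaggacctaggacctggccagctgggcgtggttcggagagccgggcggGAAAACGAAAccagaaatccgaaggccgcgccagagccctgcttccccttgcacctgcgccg
ISG20, chr15:88638766-88639065, plus strand: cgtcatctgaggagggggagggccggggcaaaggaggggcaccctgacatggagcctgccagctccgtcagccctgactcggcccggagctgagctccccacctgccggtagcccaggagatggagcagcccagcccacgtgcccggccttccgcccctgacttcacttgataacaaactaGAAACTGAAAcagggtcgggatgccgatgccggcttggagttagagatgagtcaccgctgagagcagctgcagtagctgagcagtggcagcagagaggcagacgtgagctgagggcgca
HERC6, chr4:88378602-88378901, plus strand: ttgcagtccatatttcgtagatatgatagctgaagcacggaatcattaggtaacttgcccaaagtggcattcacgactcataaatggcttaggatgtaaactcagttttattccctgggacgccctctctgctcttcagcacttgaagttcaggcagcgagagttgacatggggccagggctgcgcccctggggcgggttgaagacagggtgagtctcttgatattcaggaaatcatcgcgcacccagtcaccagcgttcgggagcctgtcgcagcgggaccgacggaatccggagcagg
IFIT1, chr10:89392373-89392672, plus strand: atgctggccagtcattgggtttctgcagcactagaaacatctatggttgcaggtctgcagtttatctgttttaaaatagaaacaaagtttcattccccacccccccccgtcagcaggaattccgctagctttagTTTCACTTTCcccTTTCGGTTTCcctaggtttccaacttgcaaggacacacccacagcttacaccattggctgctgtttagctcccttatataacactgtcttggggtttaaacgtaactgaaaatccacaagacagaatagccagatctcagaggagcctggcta
HERC5, chr4:88456869-88457168, plus strand: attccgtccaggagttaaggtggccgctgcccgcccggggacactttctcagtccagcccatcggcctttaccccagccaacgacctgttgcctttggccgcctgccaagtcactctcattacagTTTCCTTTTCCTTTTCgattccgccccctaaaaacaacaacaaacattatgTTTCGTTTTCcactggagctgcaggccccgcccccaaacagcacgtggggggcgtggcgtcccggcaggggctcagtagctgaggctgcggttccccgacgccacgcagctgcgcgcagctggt
OAS3 and IFIT1 each had 2 matches, HERC5 had 3, of which the first 2 overlap, GBP1 and ISG20 had 1 each, and HERC6 had 0 in this window. The match of ISG20, which was higher on the slice, and the first match of OAS3, which was lower, are the same 10 letters, GAAACTGAAA. That of ISG20 began 69 bases before the start, that of GBP1 127 bases before, and those of OAS3 143 and 12 bases before. Of the 33 members in the promoter table, 22 (66.7%) held the word on either strand, against 996 of 27305 promoters of the same length (3.65%). The GAS-type word TTCNNNGAA, which is its own reverse complement, was found in 10 of the 33 (30.3%), IRF1 among them, against 7.88% of all promoters. A match is a description of the letters and not a measured binding site.

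GBP2, a guanylate-binding GTPase, had the largest rise of any member in both comparisons. It had 107 and 145 normalized counts in shL1CAM_slice, 40.3 and 25.1 in shL1CAM_dish, 70.7 and 78.1 in shControl_slice, and 8.80 and 14.1 in shControl_dish. All 4 slice libraries lay above all 4 dish libraries. Its log2 fold change was 1.94 ± 0.33 (SE) in shL1CAM cells (a fold of 3.83; limma adjusted p = 0.00641) and 2.63 ± 0.33 in shControl cells (a fold of 6.18; adjusted p = 0.00366).

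ISG20, an RNA exonuclease, had 1488 and 2628 normalized counts in shL1CAM_slice, 704 and 519 in shL1CAM_dish, 2173 and 2373 in shControl_slice, and 899 and 1214 in shControl_dish. The slice libraries of each shRNA lay above both dish libraries of that shRNA, and the 2 shL1CAM_slice libraries stood far apart. Its log2 fold change was 1.71 ± 0.28 in shL1CAM cells (limma adjusted p = 0.00535) and 1.12 ± 0.28 in shControl cells (adjusted p = 0.0302).

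IRF1, a transcription factor induced by interferon gamma and by other inflammatory signals, had 470.4 and 526 normalized counts in shL1CAM_slice, 329 and 280.0 in shL1CAM_dish, 536 and 585 in shControl_slice, and 254 and 281 in shControl_dish. Again all 4 slice libraries were above all 4 dish libraries. IRF1 rose by 0.71 ± 0.16 in shL1CAM cells (limma adjusted p = 0.0181) and by 1.06 ± 0.16 in shControl cells (adjusted p = 0.00634) on the log2 scale. The 3 rises kept their sign whichever library was left out, but not always their call. In shL1CAM cells the adjusted p was 0.0608 for GBP2, 0.0623 for ISG20 and 0.119 for IRF1 without shL1CAM_dish replicate 2, and IRF1 was also at 0.0727, 0.0523 and 0.0526 without shL1CAM_dish replicate 1 or shControl_slice replicate 1 or 2. In shControl cells GBP2 was at 0.0595 without shControl_slice replicate 2 and 0.0618 without shControl_dish replicate 1, IRF1 lay between 0.0605 and 0.104 without any 1 of the 4 shControl libraries, and ISG20 between 0.0600 and 0.223 without any 1 of those or of the shL1CAM_dish libraries.

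GBP1, the neighbour of GBP2 on chromosome 1 with no coding gene between them in RefSeq, moved the other way. It had 119.9 and 114 normalized counts in shL1CAM_slice, 287 and 290.0 in shL1CAM_dish, 172 and 173 in shControl_slice, and 337 and 293 in shControl_dish. Both slice groups lay below both dish groups without overlap, and the slice replicates were within 6 normalized counts of each other. Its log2 fold change was -1.29 ± 0.16 in shL1CAM cells (2.45-fold lower; limma adjusted p = 0.00269) and -0.86 ± 0.16 in shControl cells (1.82-fold lower; adjusted p = 0.0132). Some of its reads may belong elsewhere, since 25.7% of its 31-base words occur in another gene, chiefly the pseudogene GBP1P1; for GBP2 the share was 8.08%. The third family member tested, GBP3, had log2 fold changes of -0.02 ± 0.26 in shL1CAM cells and 0.38 ± 0.26 in shControl cells.

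OAS3, which makes the oligoadenylate messenger that activates RNase L, had 645 and 439 normalized counts in shL1CAM_slice, 1492 and 1378 in shL1CAM_dish, 579.7 and 562 in shControl_slice, and 1089 and 1076 in shControl_dish. Every slice library was below every dish library. OAS3 was at a log2 fold change of -1.43 ± 0.19 in shL1CAM cells (2.69-fold lower; limma adjusted p = 0.0029) and of -0.92 ± 0.19 in shControl cells (1.90-fold lower; adjusted p = 0.0165). With the transcript-length trend of each library removed, OAS3 was at -1.21 in shL1CAM cells, still past the threshold. EIF2AK2 encodes PKR, a kinase that stops translation when it meets double-stranded RNA. It had 929.8 and 632 normalized counts in shL1CAM_slice, 1164 and 1292 in shL1CAM_dish, 928 and 928 in shControl_slice, and 1459 and 1351 in shControl_dish. Its slice libraries were below its dish libraries with both shRNAs. The log2 fold change was -0.68 ± 0.19 in shL1CAM cells (limma adjusted p = 0.0357), and -0.60 ± 0.19 in shControl cells, where it did not pass (adjusted p = 0.0667). With the length trend removed it was -0.32 in shL1CAM cells and no longer passed (limma adjusted p = 0.069).

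HERC5, the main ligase that attaches ISG15 to proteins in human cells, and its neighbour HERC6 on chromosome 4, a relative that serves as the ISG15 ligase in mouse, were lower on the slice together. HERC5 had 193 and 222 normalized counts in shL1CAM_slice, 469.9 and 365 in shL1CAM_dish, 172 and 185 in shControl_slice, and 293 and 367 in shControl_dish. HERC6 had 184 and 169 in shL1CAM_slice, 486 and 348 in shL1CAM_dish, 172 and 179.7 in shControl_slice, and 279.8 and 327 in shControl_dish. For both genes all slice libraries lay below all dish libraries. HERC5 had a log2 fold change of -0.997 ± 0.20 in shL1CAM cells (limma adjusted p = 0.011) and -0.88 ± 0.20 in shControl cells (adjusted p = 0.0218). For HERC6 it was -1.22 ± 0.20 in shL1CAM cells (limma adjusted p = 0.0055) and -0.78 ± 0.20 in shControl cells (adjusted p = 0.0335). The other members of the ISG15 system did not pass in either comparison: ISG15 itself had log2 fold changes of 0.66 ± 0.30 and 0.44 ± 0.30 in shL1CAM and shControl cells, and USP18, the protease that removes ISG15, had 0.05 ± 0.15 and 0.20 ± 0.15. Some USP18 reads may belong elsewhere, since 30.8% of its 31-base words occur in another gene, chiefly USP41.

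IFIT1, a sensor of foreign RNA caps, was the 1 gene of its family past the threshold in a slice comparison. It had 61.8 and 75.0 normalized counts in shL1CAM_slice, 164 and 157 in shL1CAM_dish, 59.2 and 70.6 in shControl_slice, and 56.7 and 73.6 in shControl_dish. Only the 2 shL1CAM_dish libraries were high, and the other 6 overlapped one another. The log2 fold change of slice over dish was -1.22 ± 0.23 in shL1CAM cells (2.33-fold lower; limma adjusted p = 0.00889) and 0.00 ± 0.23 in shControl cells (adjusted p = 0.998). IFIT2, IFIT3 and IFIT5 did not pass in either comparison, with log2 fold changes from -0.17 to 0.39. DDX60, a helicase that assists the RNA sensors, had 63.6 and 32.1 normalized counts in shL1CAM_slice, 164 and 104 in shL1CAM_dish, 52.5 and 51.4 in shControl_slice, and 96.8 and 133 in shControl_dish. All slice libraries were below all dish libraries. Its log2 fold change was -1.51 ± 0.35 in shL1CAM cells (limma adjusted p = 0.0192) and -1.11 ± 0.35 in shControl cells, which did not pass (adjusted p = 0.0658).

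GBP1 and OAS3 in shL1CAM cells kept their calls whichever of the 8 libraries was left out, with limma adjusted p up to 0.0381 and 0.047. The other falls in shL1CAM cells were lost without 1 dish library. Without shL1CAM_dish replicate 1 the adjusted p was 0.0602 for HERC6, 0.101 for HERC5, 0.0799 for IFIT1, 0.156 for DDX60 and 0.133 for EIF2AK2. Without shL1CAM_dish replicate 2 it was 0.0623 for IFIT1, 0.0617 for DDX60 and 0.184 for EIF2AK2, and EIF2AK2 was at 0.0726 to 0.0788 without any 1 of the shControl libraries. In shControl cells, leaving out any 1 of the 4 shControl libraries ended all 4 falls, with adjusted p of 0.0748 to 0.146 for GBP1, 0.107 to 0.156 for OAS3, 0.0995 to 0.182 for HERC5 and 0.143 to 0.217 for HERC6. In these fits the share of all genes tested that passed also fell, far below the 14.8% with all libraries. Such losses were thus not particular to the members. The number of members called in shControl cells fell with it, below the 7 with all libraries. Leaving out either shL1CAM_slice library instead raised it to 16, with DDX58, DDX60, EIF2AK2, IRF9, IFITM2, ISG15, IFI6, IFI35 and IFI44L added; that was 47.1% of the members, beside 46.8% and 47.0% of all genes in the same fits.

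**Figure D3:**
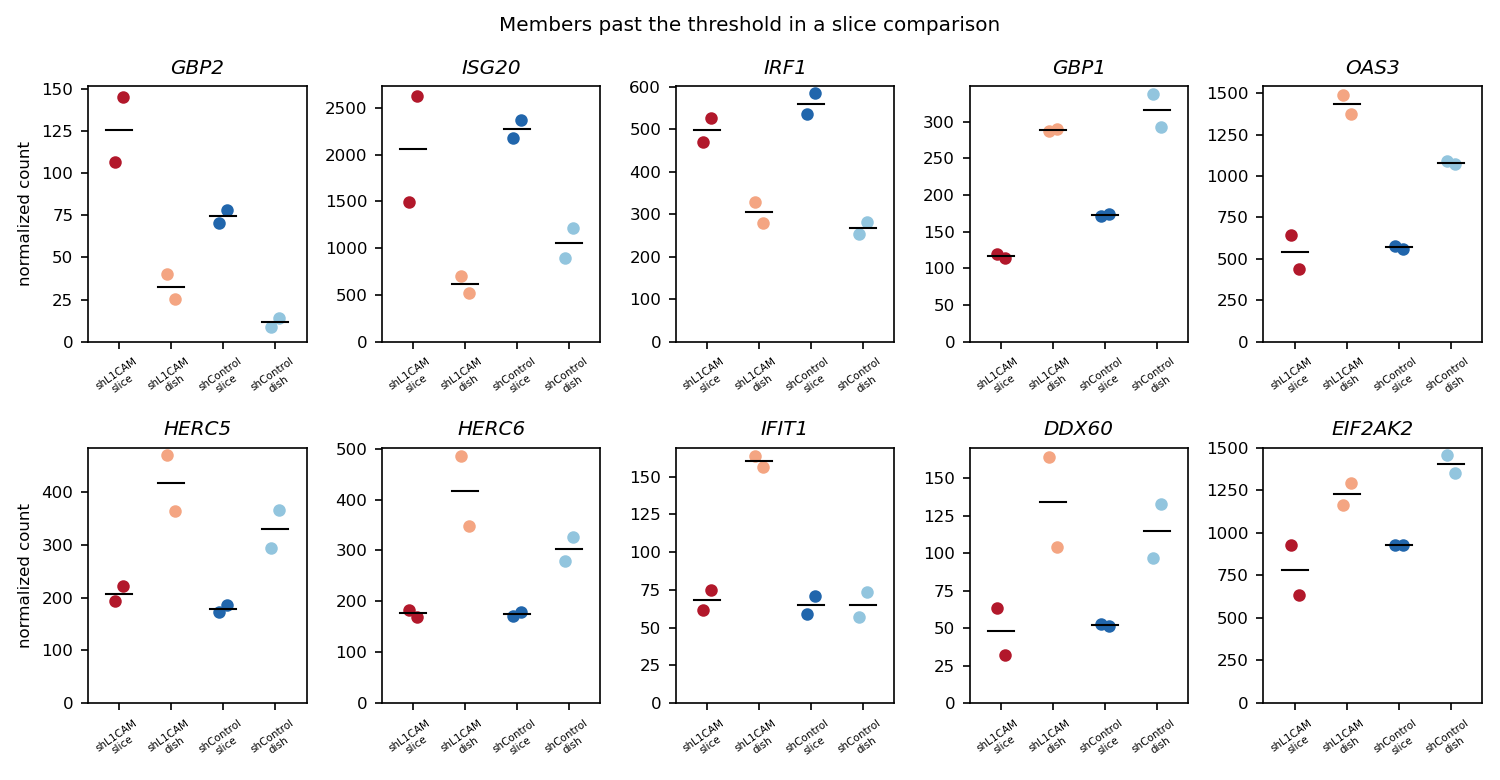
Normalized counts (vertical axes, from 0) of the 10 members past the threshold in a slice comparison, 1 point per library and a line at the mean of each group. GBP2, ISG20 and IRF1 are higher in the slice groups, the other genes except IFIT1 are lower there, and IFIT1 is high only in shL1CAM_dish, at 164 and 157.

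**Figure D4:**
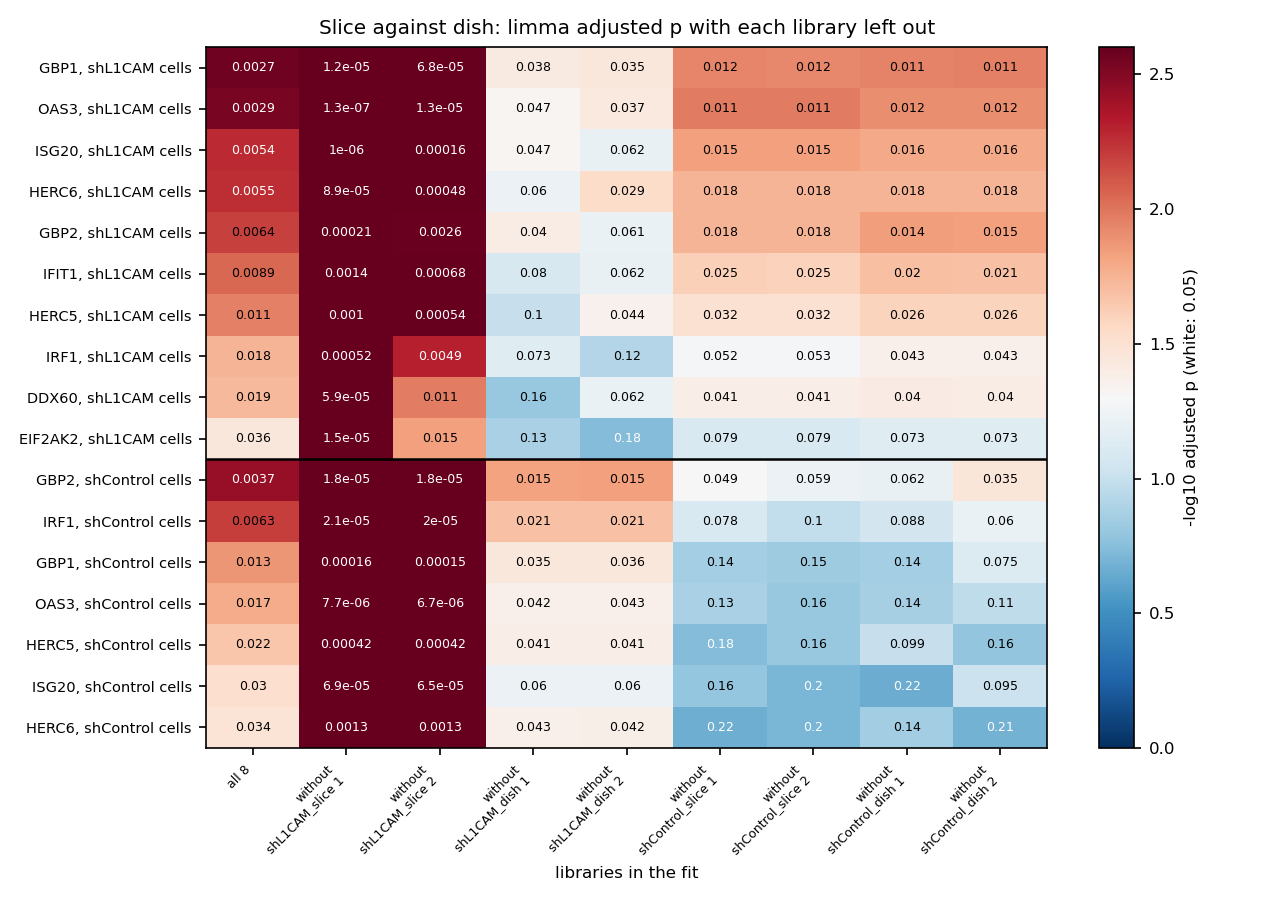
Limma adjusted p for slice against dish (number and colour of each cell, on a -log10 scale with white at 0.05) for the calls in shL1CAM cells (upper 10 lines) and shControl cells (lower 7), with all 8 libraries and with each library left out in turn. Only GBP1 and OAS3 in shL1CAM cells stay below 0.05 throughout, and every adjusted p is lower without either shL1CAM_slice library.

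The remaining 24 tested members passed in neither slice comparison. Among the sensors, DDX58, which encodes RIG-I, ranged from 147 to 253 normalized counts over the 8 libraries and IFIH1, which encodes MDA5, from 151 to 213. Of the signalling factors, STAT2 ranged from 294 to 486, IRF7, an inducer of interferon genes, from 68.2 to 112, and IRF9 from 196 to 519. IRF9 had log2 fold changes of 0.45 ± 0.24 in shL1CAM cells and 0.70 ± 0.24 in shControl cells (limma adjusted p = 0.0848), and its reads cannot be separated from those of an overlapping read-through gene that holds 100% of its words. The ADP-ribosyltransferases PARP9 and PARP14 ranged from 274 to 512 and from 798 to 1519. SAMD9, a restriction factor for poxviruses, had 304 and 158 normalized counts in shL1CAM_slice, 434 and 371 in shL1CAM_dish, 469 and 459 in shControl_slice, and 395 and 461 in shControl_dish. Its slice libraries lay below its dish libraries in shL1CAM cells (log2 fold change -0.87 ± 0.28, limma adjusted p = 0.0535) and overlapped them in shControl cells (0.12 ± 0.28).

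STAT2 had 389 and 294 normalized counts in shL1CAM_slice, 486 and 375 in shL1CAM_dish, 387 and 392 in shControl_slice, and 365 and 411 in shControl_dish. PARP14 had 1381 and 798 in shL1CAM_slice, 1284 and 1266 in shL1CAM_dish, 1443 and 1519 in shControl_slice, and 1321 and 1207 in shControl_dish. PARP9 had 369 and 274 in shL1CAM_slice, 512 and 365 in shL1CAM_dish, 429.7 and 402 in shControl_slice, and 360.0 and 381 in shControl_dish. In each of these 3 genes replicate 2 of shL1CAM_slice was the lowest library. With these 3, the same held for 10 of the 34 tested members, all with transcripts of 3035 to 10042 bases, among them OAS3, EIF2AK2, GBP1, HERC6 and DDX60. In another 10, of 725 to 2220 bases, that library was the highest, among them GBP2, ISG20, IFITM2, IFITM3, ISG15 and IFI6. Over all tested genes of known length, that library deviated by a median log2 of 0.52 in the shortest 10% and -0.68 in the longest 10%. Matching counts over all genes are not given here. With the length trend of each library removed, all 7 calls in shControl cells and 9 of the 10 calls in shL1CAM cells were still past the threshold in limma, EIF2AK2 being the exception.

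Among the other uncalled members, ISG15 ranged from 221 to 525 normalized counts, USP18 from 305 to 414, IFI6 from 189 to 571, IFI35 from 139.9 to 258, IFI44 from 250.4 to 441 and IFI44L from 109 to 285. IFI44L came closest to the threshold in shControl cells, where it was 0.73 ± 0.21 higher on the slice on the log2 scale (limma adjusted p = 0.0518). IFIT2 ranged from 55.8 to 92.6, IFIT3 from 47.9 to 64.9, IFIT5 from 179 to 268, GBP3 from 45.2 to 81.2 and CMPK2, a mitochondrial nucleotide kinase, from 38.2 to 69.2. The least abundant tested members were IFITM1 at 12.04 to 38.1, MX1 at 12.4 to 29.2 and IFI27 at 7.38 to 16.7. In shControl cells both slice libraries were above both dish libraries for 17 of the 34 members (50%, against 39.8% of all genes) and below for 8 (23.5%, against 37.3%). In shL1CAM cells they were above for 5 (14.7%, against 28% of all genes) and below for 11 (32.4%, against 28.7%). An unadjusted p below 0.05 was reached by 12 members in shL1CAM cells (37.5% of all genes did) and by 12 in shControl cells (31.6% of all genes).

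The second question was whether the L1CAM shRNA changed these genes. On the slice, 0 of the 34 tested members passed in limma, against 0.646% of all genes tested (0.154% higher and 0.492% lower), and 3 had an unadjusted p below 0.05 (18.3% of all genes did). The log2 fold changes of shL1CAM over shControl were -1.08 ± 0.28 for SAMD9, -0.56 ± 0.16 for GBP1 and -0.58 ± 0.24 for IRF9, with limma adjusted p of 0.137, 0.172 and 0.266. Both shL1CAM_slice libraries lay below both shControl_slice libraries for each of the 3, with 304 and 158 normalized counts in shL1CAM_slice against 469 and 459 in shControl_slice for SAMD9. edgeR called 0 members, and DESeq2 called 1, SAMD9 (adjusted p = 0.0251), which also passed with the length trend removed (limma adjusted p = 0.0437). Without shL1CAM_slice replicate 1 the count was 11 members (32.4%, against 53.0% of all genes), and without replicate 2 it was 2, SAMD9 and IFITM3 (5.88%, against 4.67% of all genes). The median of the 34 was -0.12. Both shL1CAM_slice libraries were above both shControl_slice libraries for 8 members (23.5%, against 26% of all genes) and below for 9 (26.5%, against 24.1%).

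In the dish, 0 of 34 members passed in limma either, against 0.307% of all genes tested (0.0922% higher and 0.215% lower), while 5 had an unadjusted p below 0.05, or 14.7% of the 34, beside 9.35% of all genes. IFIT1 had the smallest p; its log2 ratio of shL1CAM over shControl was 1.30 ± 0.23 (a fold of 2.46; limma adjusted p = 0.0538). Its 164 and 157 normalized counts in shL1CAM_dish stood above the 56.7 and 73.6 in shControl_dish. The call depended on the method, since IFIT1 passed in edgeR (adjusted p = 0.0468), in DESeq2 (adjusted p = 0.00333), and in limma with a pseudocount of 10 (adjusted p = 0.049), with library weights or with the length trend removed. The high shL1CAM_dish libraries of IFIT1 enter both this comparison and its slice comparison in shL1CAM cells, so the 2 are not separate observations. GBP2 was next, with 40.3 and 25.1 normalized counts in shL1CAM_dish against 8.80 and 14.1 in shControl_dish (log2 fold change 1.43 ± 0.33, limma adjusted p = 0.145).

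Of the other 3 with an unadjusted p below 0.05 in the dish, IFI44 had 441 and 342 normalized counts in shL1CAM_dish and 250.4 and 274 in shControl_dish (0.57 ± 0.17, limma adjusted p = 0.308), and IFI44L, its neighbour on chromosome 1, had 217 and 164 in shL1CAM_dish and 109 and 148 in shControl_dish (0.57 ± 0.21, adjusted p = 0.434). ISG20 was on the other side, with 704 and 519 in shL1CAM_dish and 899 and 1214 in shControl_dish (-0.79 ± 0.28, limma adjusted p = 0.386). In none of the 5 did the groups overlap. Both shL1CAM_dish libraries were above both shControl_dish libraries for 10 of the 34 members (29.4%, against 25.7% of all genes) and below for 4 (11.8%, against 25.6%), and the median log2 fold change was 0.17, beside 0.01 over all genes. Without either shL1CAM_slice library, which are not part of this comparison but share its estimate of the spread, 5 members passed, namely IFIT1, GBP2, IFI44, ISG20 and OAS3 (14.7%, against 11.04% and 11.05% of all genes). With library weights 6 passed, with the same 5 and IFI6 (17.6%, against 7.77% of all genes).

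**Figure D5:**
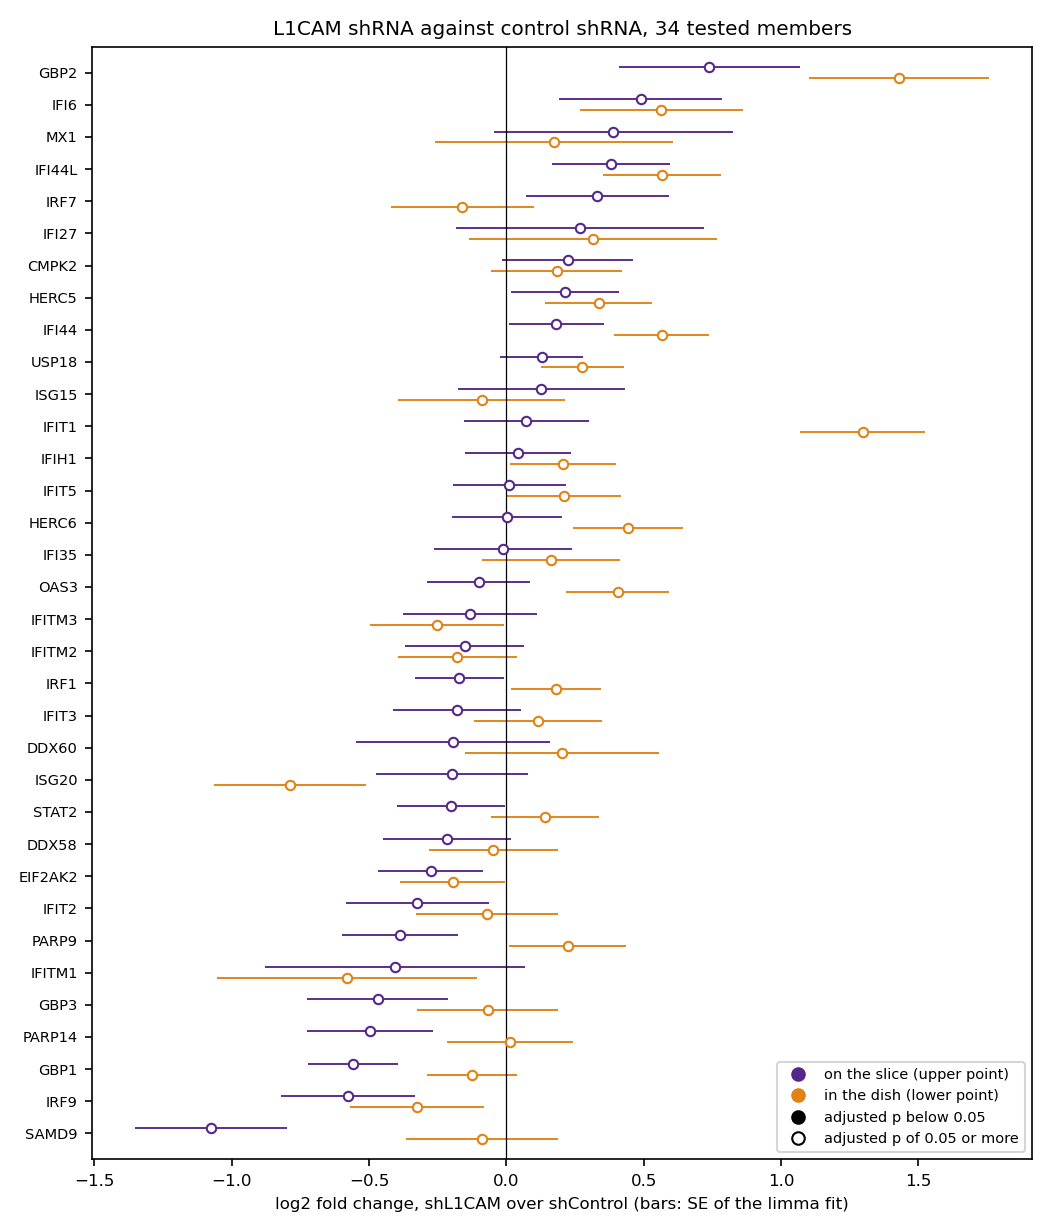
Log2 fold change of shL1CAM over shControl for the 34 tested members, with the SE of the limma fit as bars; purple, upper point: on the slice; orange, lower point: in the dish. All points are open because no member had an adjusted p below 0.05; IFIT1 in the dish (1.30) and SAMD9 on the slice (-1.08) had the smallest p among the members in each comparison.

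The difference between the slice responses of shL1CAM and shControl cells was tested as an interaction. In limma 0 of 34 members and 0 of 13010 genes passed, and 2 members had an unadjusted p below 0.05 (1.25% of all genes did); edgeR and DESeq2 also called 0 members. The 2 members were IFIT1, at -1.22 ± 0.32, and SAMD9, at -0.99 ± 0.39, each with a limma adjusted p of 0.97. A call in only 1 of the 2 slice comparisons, as for IFIT1, DDX60 and EIF2AK2, is therefore not shown to differ between the shRNAs. Without shL1CAM_slice replicate 1 the interaction had 8 members past the threshold, among them IFIT1, SAMD9, OAS3 and ISG20 (23.5%, against 31.8% of all genes), and without each of the other 7 libraries it had 0.

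Genes of the pathway that were not members give the setting. Transcripts of the interferons themselves were nearly absent: of the 21 interferon genes listed, 14 were at 0 in all 8 libraries, 20 had at most 3 reads in every library, and IFNE, the highest, reached 6.02 normalized counts. The receptors were present. IFNGR2, a chain of the interferon gamma receptor, rose on the slice, with 1397 and 1556 normalized counts in shL1CAM_slice, 591 and 631 in shL1CAM_dish, 1659.8 and 1663 in shControl_slice, and 721 and 816 in shControl_dish. Its log2 fold change was 1.27 ± 0.14 in shL1CAM cells (limma adjusted p = 0.00181) and 1.11 ± 0.14 in shControl cells (adjusted p = 0.0039). The type I receptor chain IFNAR1 passed only the test in shControl cells (0.66 ± 0.17, limma adjusted p = 0.0353), and IFNGR1 was lower in shL1CAM cells (-0.51 ± 0.14, adjusted p = 0.0316). The IFNGR2 call in shL1CAM cells held whichever library was left out, and that in shControl cells was at 0.0683 to 0.0718 without a shControl_slice library or shControl_dish replicate 1. Those of IFNAR1 and IFNGR1 held only when a shL1CAM_slice library was left out, with limma adjusted p of up to 0.226 and 0.138 otherwise. The 3 kinases tested, JAK1, JAK2 and TYK2, did not pass in any comparison.

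SOCS1, an inhibitor of JAK kinases that interferon gamma and other cytokines induce, had 48.0 and 69.0 normalized counts in shL1CAM_slice, 9.16 and 12.04 in shL1CAM_dish, 43.0 and 33.2 in shControl_slice, and 9.78 and 13.2 in shControl_dish. All slice libraries were above all dish libraries. SOCS1 had log2 fold changes of 2.35 ± 0.33 in shL1CAM cells (limma adjusted p = 0.00337) and 1.65 ± 0.33 in shControl cells (adjusted p = 0.0155); the first held whichever library was left out, and the second was lost without any 1 of the shControl libraries (0.0741 to 0.154). Over all the 43 tested pathway genes that are no members, 6 were higher and 3 lower on the slice in shL1CAM cells (20.9% called, against 21.3% of all genes), and 5 were higher and 1 lower in shControl cells (14.0%, against 14.8%). Between the shRNAs 0 passed in limma or edgeR in either culture, 11 on the slice (25.6%, against 18.3% of all genes) and 6 in the dish (14.0%, against 9.35%) had an unadjusted p below 0.05, and DESeq2 called 1, SP100 on the slice (adjusted p = 0.0329). Among further interferon targets, LGALS3BP was higher in both (1.30 ± 0.38 and 1.34 ± 0.38 in shL1CAM and shControl cells) and WARS, a tRNA synthetase gene, lower in both (-0.61 ± 0.13 each). SP100 was higher in shControl cells (0.68 ± 0.15), and PML, the organizer of the nuclear bodies that SP100 also occupies, was higher in shL1CAM cells (0.57 ± 0.16). SP100 also lay higher on the slice in shL1CAM cells (423 and 372 normalized counts, against 332 and 337 in the dish). So did PML in shControl cells (571 and 575, against 403 and 424). No gene passed the interaction in limma, so a pathway gene called in only 1 slice comparison is not shown to differ between the shRNAs. In shL1CAM cells TICAM1, the adaptor of the RNA receptor TLR3, was also higher (0.75 ± 0.19), and TRIM14 was lower (-0.56 ± 0.16). Each of these calls was lost without 1 or more of the libraries: in shControl cells without any 1 of the shControl libraries, and in shL1CAM cells without shL1CAM_dish replicate 2, where the limma adjusted p was 0.0934 for TICAM1, 0.242 for LGALS3BP, 0.203 for TRIM14, 0.178 for PML and 0.0624 for WARS. The interferon gamma targets CXCL9, CXCL10, CXCL11, CIITA, GBP4 and GBP5 were at 0 to 2.75 normalized counts in every library, and so at or below 3 reads.

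Reads of mouse brain cells could in principle be counted on human genes, so markers of those cells were looked at beside the slice results. Of 15 markers of microglia and macrophages 1 was tested, CD68, and C1QA, C1QB, C1QC, P2RY12 and TREM2 were at 0 in all 8 libraries; the 14 markers that were low in the dish summed to 25.8 and 25.0 normalized counts in shL1CAM_slice, 19.2 and 29.1 in shL1CAM_dish, 19.1 and 28.9 in shControl_slice, and 20.5 and 13.2 in shControl_dish. Of 10 oligodendrocyte markers, the 7 that were low in the dish summed to 27.7 and 17.8 in shL1CAM_slice, 4.58 and 1.00 in shL1CAM_dish, 27.7 and 23.5 in shControl_slice, and 1.96 and 1.89 in shControl_dish. The markers of neurons, astrocytes and vessel cells that were low in the dish summed to at most 30.9 in any library. Of 4 oligodendrocyte markers tested, 1 was higher on the slice in each comparison. Its limma adjusted p was 0.00628 in shL1CAM cells and 0.00396 in shControl cells. The log2 fold changes of the 4 ran from 0.21 to 3.58 in shL1CAM cells and from -0.55 to 4.65 in shControl cells. Of 8 neuron markers tested, 1 was higher in shL1CAM cells and 0 passed in shControl cells. Of 4 astrocyte markers tested, 1 was lower in each comparison. The tested markers of microglia and vessel cells did not pass. The part of mouse reads in the members' slice values was not tested.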

How the data were processed

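The 43 members and all gene lists were chosen with earlier results of these data known. Per the labels' protocols, ribosome-bound RNA was made into TruSeq RNA v2 libraries, a poly-A kit that does not mark strand. The authors deposited 1 table of normalized read counts (a signal scaled to make libraries comparable) for 8 libraries; the tools in the submitters' processing notes were HTSeq 0.5.4, DESeq2 and FastQC 0.11.3, with the build hg19/GRCh37. The aligner was not given in the sources used here, nor the annotation. Dividing each column by its smallest step gave whole reads for 100% of values (tolerance 1e-06), and no column was left unused. Genes averaging 10 normalized counts or more were tested with limma 3.58.1 (R 4.3.3) on log2(value + 1), with 4 group means, a mean-variance trend and Benjamini-Hochberg adjustment within each of 5 comparisons. Fold changes of low genes are understated on that scale. On the recovered reads, edgeR 4.0.16 (its quasi-likelihood test) called 2891 genes for slice against dish in shL1CAM cells, 1990 in shControl cells, 86 and 77 between shRNAs on the slice and in the dish, and 0 for the interaction; DESeq2 1.42.0 was also run. Members past the threshold and the 10 with the highest means are given in all 8 libraries. Alternatives were a pseudocount of 10, no filter, TMM scaling, a replicate block, library weights, removal of a transcript-length trend, and leaving out each library. Reads shared between similar genes, and reads of overlapping genes on either strand, could not be separated. Some items withheld for evaluation are not reported here.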

Additional observations from a re-analysis of the deposited data

How the results depend on the processing

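All values count genes or members past an adjusted p of 0.05, and the cause of each change was not tested. For slice against dish in shL1CAM cells, 2775 genes and 10 members passed in limma; library weights gave 975 genes and 4 members, and leaving out 1 library gave 341 to 7503 genes and 4 to 21 members. In shControl cells 1930 genes and 7 members passed; library weights gave 7032 and 17, the length trend removed 3464 and 11, DESeq2 11 members, and leaving out 1 library 7 to 6109 genes and 0 to 16 members. Between shRNAs on the slice 84 genes and 0 members passed; without the filter 15 genes, with library weights 48, with the length trend removed 339 genes and 1 member, with DESeq2 342 genes and 1 member, and leaving out 1 library 4 to 6896 genes and 0 to 11 members. In the dish 40 genes and 0 members passed; a pseudocount of 10 gave 62 genes and 1 member, no filter 16 genes, library weights 1011 and 6, the length trend removed 214 and 1, edgeR 77 and 1, DESeq2 184 and 1, and leaving out 1 library 0 to 1437 genes and 0 to 5 members. For the interaction, leaving out 1 library gave 0 to 4136 genes and 0 to 8 members. Among the fits that left out 1 library, the largest counts came without a shL1CAM_slice library, whose replicates spread most; library weights put 0.162 on that group, against 1.10, 3.74 and 1.499 on shL1CAM_dish, shControl_slice and shControl_dish.

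IFITM3 was the 1 member whose called direction turned: slice over dish in shL1CAM cells was 0.01 on the log2 scale with all libraries, -0.39 without shL1CAM_slice replicate 2 (limma adjusted p = 0.0331) and 0.41 without replicate 1 (adjusted p = 0.0172). Without the filter ISG20 (0.0502) and HERC6 (0.0523) missed the limma threshold in shControl cells, and library weights ended the calls of GBP2, IRF1, IFIT1, HERC5, DDX60 and EIF2AK2 in shL1CAM cells. The correlation of replicate differences between groups ran from -0.377 to 0.194, which cannot decide whether equal replicate numbers mark paired samples. The labels give a replicate number but do not say that it marks a shared day or culture. With the number as a replicate block, limma gave 2777 genes and 11 members in shL1CAM cells (SAMD9 added), 1814 and 7 in shControl cells, 85 and 0 between shRNAs on the slice, 46 and 0 in the dish, and 0 and 0 for the interaction. TMM scaling moved the median of all genes by less than 0.03 and no count by 1.5 times. With 2 libraries a group and 3 reads as the limit of detection, members under 10 normalized counts were not compared.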
